A study of Arabidopsis thaliana with 4 samples.

Results

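The 5 genes described here encode proteins of the thylakoid, the photosynthetic membrane of the chloroplast, that are made in the cytosol and imported into the plastid. They are PSAN (AT5G64040), PSBW (AT2G30570), PSBY (AT1G67740), ATPC1 (AT4G04640) and AT1G52220, listed in the gene table under the synonym CURT1C. They lie on chromosomes 5, 2, 1, 4 and 1, in that order, and positions are not given because the array annotation names no genome build. They were chosen by name and function, with earlier results of these data known. Each was represented by 1 probe set, out of 13286 genes that had a probe set of their own in the annotation used. No member was also listed on a probe set of several genes, and all 5 passed the filter on dim signals. Whole Arabidopsis thaliana plants grown on agar plates under long days were compared on 4 single-colour Affymetrix arrays, 2 of the ppi2 mutant at 20 days and 2 of the wild type at 10 days. The ppi2 mutant lacks TOC159, a receptor through which the chloroplast takes up precursor proteins, and its plants are pale. All groups were untreated, and the accession of the wild type is not given in the labels.

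Light energy is converted in the thylakoid by photosystem II and photosystem I, which are linked by the cytochrome b6f complex, and the proton gradient they build drives the chloroplast ATP synthase. The reaction centre proteins are encoded in the plastid genome, whereas many other subunits and the CURT1 proteins are encoded in the nucleus. Their precursors carry a transit peptide that is recognised at the chloroplast surface, which makes them clients of the import machinery that ppi2 impairs. Transcripts of such genes are abundant in green tissue and depend on light and on the state of the plastid.

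Genotype and age changed together and cannot be told apart. Replicates are described as biological, with no word on whether the plants were raised separately, so p-values measure the spread between these arrays alone. In RNA of whole plants, fewer green cells and less RNA per cell cannot be told apart. Median signals were between 193 and 213 on the 4 arrays. TOC159 had no probe set in the annotation used, so the labels could not be checked by the mutated gene, and arrays are named by their labels throughout. Whether labels were exchanged between same-numbered arrays was not tested; if they were in 1 number, the direction of every difference within that number would turn, and the labelled comparison would set mixed groups against each other. The 5 genes divided the arrays across the labels and not along them, so each result below is given array by array. Of the photosynthetic tissue markers, 1 of 4 had a probe set, RCA (rubisco activase), with signals of 12918 and 20244 on ppi2 replicates 1 and 2 and 16455 and 13708 on wild type replicates 1 and 2. Root markers with a probe set were 2 of 8. EXPA7 was too dim to be tested and EXPA18 passed the filter, with summed signals of 193.9 and 233.6 in ppi2 and 249.6 and 183.6 in wild type for both together. None of the 3 epidermal or 2 floral markers had a probe set of their own. These marker counts refer to the annotation used, not to all that the array holds.

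PSAN is a small subunit on the lumenal side of photosystem I, where plastocyanin delivers electrons. Its signal was 3737 on ppi2 replicate 1 and 16906 on ppi2 replicate 2, against 20124 on wild type replicate 1 and 2975 on wild type replicate 2. One array of each label was high and one was low, so the labelled groups overlapped completely. The highest array exceeded the lowest 6.76-fold. Both high arrays differed somewhat, with ppi2 replicate 2 at 0.84 of wild type replicate 1, and ppi2 replicate 1 was 1.26-fold above wild type replicate 2.

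PSBW encodes a small membrane protein of photosystem II that helps to hold the complex and its antenna together. It read 5978 and 15614 on ppi2 replicates 1 and 2, and 15695 and 5133 on wild type replicates 1 and 2. The same arrays, ppi2 replicate 2 and wild type replicate 1, were high, and their signals had a ratio of 0.995. The low arrays differed by 1.16-fold, with ppi2 replicate 1 above wild type replicate 2, and the full range was 3.06-fold.

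PSBY encodes a precursor that is cut into small membrane proteins of photosystem II. Signals were 4110 and 17365 on ppi2 replicates 1 and 2 and 17280 and 4088 on wild type replicates 1 and 2. Here both pairs of arrays nearly coincided across the labels. The log2 difference was 0.008 between ppi2 replicate 1 and wild type replicate 2, and 0.007 between ppi2 replicate 2 and wild type replicate 1, whereas the range over all arrays was 4.25-fold.

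ATPC1 is the main gamma subunit of the chloroplast ATP synthase, the rotating shaft whose disulfide bridge is reduced in the light. It read 5907 and 16166 on ppi2 replicates 1 and 2, and 16207 and 5583 on wild type replicates 1 and 2. The order of arrays was that of PSBW, with a range of 2.9-fold. On the high arrays the ratio of ppi2 to wild type was 0.997, and on the low arrays it was 1.06.

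AT1G52220 belongs to the CURT1 family, membrane proteins that bend the thylakoid at the margins of the grana. Its signals were 1278 and 5403 on ppi2 replicates 1 and 2, against 5656 and 1353 on wild type replicates 1 and 2. Again 1 array of each label was high, and the range was 4.43-fold. Unlike the other 4 genes, AT1G52220 read slightly lower on the array labelled ppi2 among the low arrays (ratio 0.944). Among the high arrays its ratio was 0.955, where PSAN (0.84), PSBW (0.995) and ATPC1 (0.997) also read lower on the ppi2 array. With 1 array per arm, these ratios could not be tested.

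**Figure D1:**
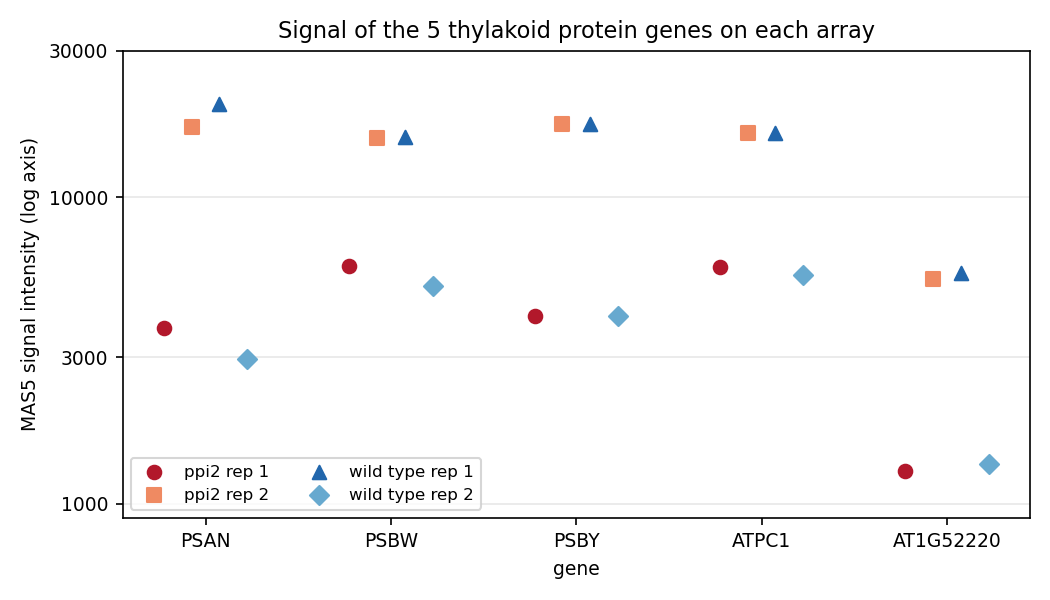
MAS5 signal (log axis) of the 5 genes, 1 point per array, with ppi2 arrays in red tones and wild type arrays in blue tones. For every gene ppi2 replicate 2 and wild type replicate 1 lie high, and ppi2 replicate 1 and wild type replicate 2 lie low, so both labelled groups hold 1 high and 1 low array.

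The question posed by the design is whether these transcripts differ between ppi2 and wild type. With the groups as labelled, none of the 5 passed the threshold in limma, where 0% of all 13604 tested probe sets were called. Without adjustment, 8 probe sets had a limma p under 0.05. That is far below the share of 0.05 that evenly spread p-values would give, so the labelled test was conservative on these arrays. The mean PSAN signal was 10321 ± 9312 (SD, n = 2) in ppi2 and 11550 ± 12126 (SD, n = 2) in wild type, so each SD was close to its mean. The labelled log2 difference of PSAN, ppi2 minus wild type, was 0.04 (SE 1.186, limma adjusted p = 1), with a 95% interval from -3.09 to 3.17. PSBW had the largest labelled difference of the 5, 0.11 (interval -1.86 to 2.07). The labelled difference of PSBY was 0.01 (-2.64 to 2.65) and that of ATPC1 0.04 (-1.920 to 1.998). For AT1G52220 it was -0.07 (-2.71 to 2.57). The median of the 5 was 0.04, beside -0.01 over all tested probe sets. These intervals include changes of more than 3-fold in either direction, so the labelled comparison does not show that the genes were alike in ppi2 and wild type. The signals of the labelled groups overlapped for all 5 genes, whereas they did not overlap for 14.3% of all tested probe sets.

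Which array was left out set the sign of every labelled value. When ppi2 replicate 1 was left out the median of the 5 genes was 0.96, and when wild type replicate 1 was left out it was 0.95. Omitting ppi2 replicate 2 gave -1.03, as did omitting wild type replicate 2.

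**Figure D2:**
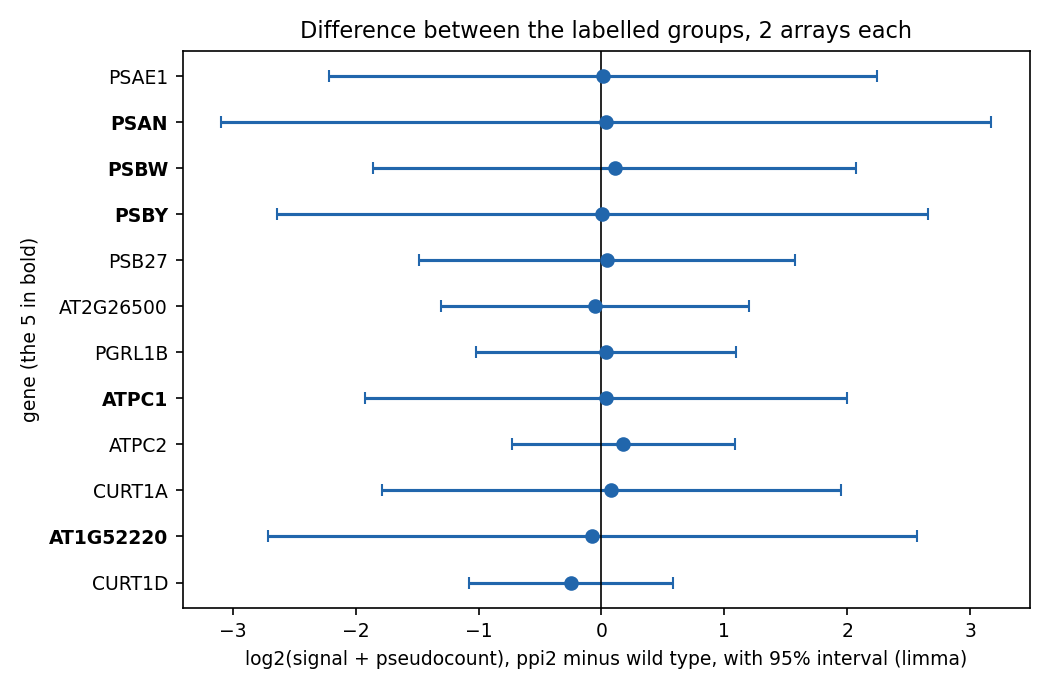
Log2 difference between ppi2 and wild type (x axis, on the log2(signal + pseudocount) scale) with its 95% interval from limma, 2 arrays per group, for the 12 tested genes of the thylakoid lists, the 5 genes in bold. All estimates lie near 0 and all intervals include 0, with PSAN having the widest.

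The differences within a replicate number were opposite for every member. Within replicate number 1 the array labelled ppi2 was lower, and within replicate number 2 it was higher. In number 1, PSAN was 5.39-fold lower in ppi2, AT1G52220 4.43-fold, PSBY 4.2-fold, ATPC1 2.74-fold and PSBW 2.63-fold. In number 2 the ppi2 array was 5.68-fold higher for PSAN, 4.25-fold for PSBY, 3.99-fold for AT1G52220, 3.04-fold for PSBW and 2.9-fold for ATPC1. All 5 genes were thus at least 2-fold lower in number 1, as were 10.9% of all tested probe sets. All 5 were at least 2-fold higher in number 2, as were 9.59% of all. Both conditions were met by 7.14% of all tested probe sets. By any size, 5001 of all 13604 were lower in number 1 and higher in number 2, and 5597 were the reverse. Opposite differences within the numbers were thus common on these arrays and not particular to the 5 genes. The genes were chosen with earlier results of these data known, so these shares are description only. The median log2 differences of the 5 genes were -2.07 and 1.99, beside 0.02 and -0.05 over all tested probe sets. Each of these differences rests on 1 array per arm, so none has an error or a p-value.

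Hybridisation controls, labelled transcripts added just before the arrays were hybridised, also differed between arrays. Their median signals over 18 probe sets were 840 and 1669 on ppi2 replicates 1 and 2 and 1514 and 1106 on wild type replicates 1 and 2, lower on the arrays where the 5 genes were lower. Dividing each array by its control median moved the median of all probe sets to 0.85 in number 1 and -0.63 in number 2. Relative to that median each gene kept its difference by construction. With this scaling, chosen after seeing the data, PSBW was still lower in number 1 (log2 -0.54) and PSAN too (-1.58). In number 2 the smallest difference was that of ATPC1 (0.94) and the largest that of PSAN (1.91). Poly-A controls, transcripts added to the RNA before labelling, followed the replicate number instead: their median over 24 probe sets was 1575 and 476.9 on ppi2 replicates 1 and 2 and 2386 and 481 on wild type replicates 1 and 2. The 3' to 5' signal ratio of actin, a sign of RNA integrity, was 4.99 and 3.94 in ppi2 and 4.59 and 4.3 in wild type, and so did not order the arrays as the genes did. That of GAPDH was 1.19 and 1.08 in ppi2 and 1.11 and 1.18 in wild type, slightly higher on the arrays where the genes were lower, and its part in the result was not tested.

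The members differed in how far their signals ranged. The span, the highest minus the lowest array on the log2 scale, was 2.76 for PSAN, and 2.66% of tested probe sets had a span at least as large. AT1G52220 spanned 2.14 (5.29% of probe sets) and PSBY 2.08 (5.77%). PSBW spanned 1.61 (11.6%) and ATPC1 1.54 (13%). The median span of all tested probe sets was 0.72, or 1.65-fold. PSBY and PSBW, both of photosystem II, were adjacent in this order. In size, the span of PSBY was closer to that of AT1G52220, and the span of PSBW closer to that of ATPC1. Whether spans follow the complexes was not tested.

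**Figure D3:**
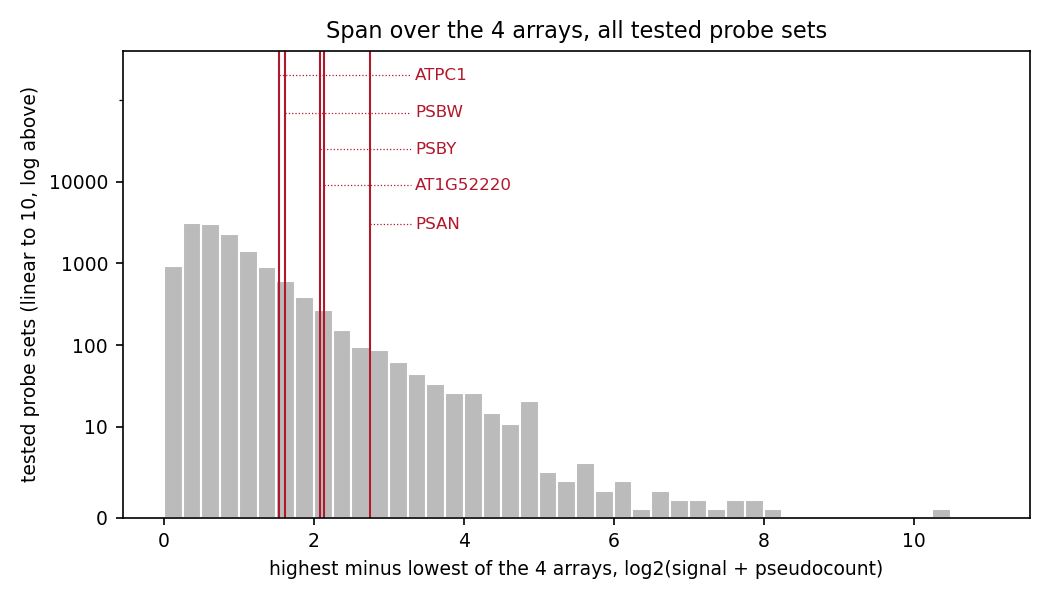
Number of tested probe sets (y axis, linear to 10 and logarithmic above) by the span over the 4 arrays (x axis, log2), with red lines at the 5 genes. PSAN lies furthest out at 2.76, ATPC1 and PSBW at 1.54 and 1.61, and all 5 exceed the median span of 0.72.

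Profiles were compared by the root mean square (RMS) difference between log2 values over the 4 arrays, each gene centred on its own mean. Among the 10 pairs of members, PSBY and AT1G52220 were closest (RMS 0.041), followed by PSBW and ATPC1 (0.049). PSAN and ATPC1 were furthest apart (0.501). Between ppi2 replicate 2 and wild type replicate 1 the 5 genes had a median absolute log2 difference of 0.008, beside 0.26 over all tested probe sets. Between ppi2 replicate 1 and wild type replicate 2 these values were 0.082 and 0.156. By contrast, the median absolute difference of the 5 genes was 2.07 between the ppi2 replicates and 2.06 between the wild type replicates, beside 0.439 and 0.485 over all tested probe sets.

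Other genes of the pathway were taken from lists of photosystem I and II subunits, cytochrome b6f and electron carriers, ATP synthase subunits and the CURT1 family. Of these 44 genes, 12 had a probe set of their own in the annotation used, and all 12 were tested. In the labelled comparison 0 of the 12 were called higher and 0 lower. Outside the 5 members there were 7, with median differences of -0.91 in number 1 and 0.81 in number 2. Of the 7, 5 were lower in number 1 and higher in number 2, 3 of them at least 2-fold in both. Among all tested probe sets 36.8% were lower in number 1 and higher in number 2 by any size, and 7.14% by at least 2-fold in both. The lists were chosen with earlier results of these data known, so these shares are description only.

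Among photosystem I subunits, PSAE1, a stromal subunit at the docking site of ferredoxin, was the other one with a probe set of its own. Its signals of 6948 and 22998 in ppi2 and 22797 and 6889 in wild type followed the members, with log2 differences of -1.71 and 1.74. In photosystem II, PSB27, a lumenal factor in assembly and repair, varied less than PSBW and PSBY. It read 4985 and 13213 in ppi2 replicates 1 and 2 against 10036 and 6167 in wild type, differences of -1.01 and 1.098. Among the high arrays PSB27 was 1.32-fold higher in ppi2, and among the low arrays its ppi2 signal was 0.808 of wild type. This unevenness between arrays of different label was larger than that of any of the 5 members on the high arrays.

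Electron transport genes outside the photosystems differed by less than 2-fold within either number. AT2G26500, from the cytochrome b6f list, had log2 differences of -0.91 and 0.81. PGRL1B, which acts in cyclic electron flow around photosystem I, had -0.56 and 0.64.

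Within the ATP synthase and CURT1 families, 2 other members had different orders of arrays. ATPC2, a second gamma subunit gene, read 345.5 and 238.2 in ppi2 and 282.7 and 225.5 in wild type, and was higher in ppi2 in both numbers, by 0.28 and 0.08. Its labelled log2 difference was 0.18 (interval -0.73 to 1.09, limma adjusted p = 1), so this order was within the spread between arrays. CURT1A (AT4G01150) was high on the same arrays as AT1G52220, with 5778 and 15441 in ppi2 and 14580 and 5466 in wild type and differences of -1.33 and 1.497. CURT1D (AT4G38100) read 318.5 and 319.8 in ppi2 and 312.7 and 461.4 in wild type, differences of 0.03 and -0.52. The difference between genes of a family was not tested.

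The antenna protein LHCB4.2 was high on the same arrays with a much wider range, at log2 differences of -5.15 and 5.35, while LHCB4.1 had -2.08 and 1.77. LHCB4.3 differed by -0.88 in number 1 and 0.03 in number 2. RCA was high on the same arrays with smaller differences, -0.35 and 0.56, and a range over the arrays of 1.57-fold. Differences between these genes and the 5 members were not tested.

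Of 11 genes for targeting of proteins to the thylakoid, 1 had a probe set of its own in the annotation used. AT5G28750 was level on the arrays, at 1573 and 1662 in ppi2 and 1577 and 1437 in wild type. For the import machinery at the envelope and the processing of precursors, this held for 1 of 10 genes. SPP, the stromal peptidase that removes transit peptides, read 474.8 and 631.3 in ppi2 and 781.7 and 578.4 in wild type, differences of -0.71 and 0.12. Its labelled log2 difference of -0.29 did not pass the threshold (interval -1.13 to 0.55, limma adjusted p = 1).

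**Figure D4:**
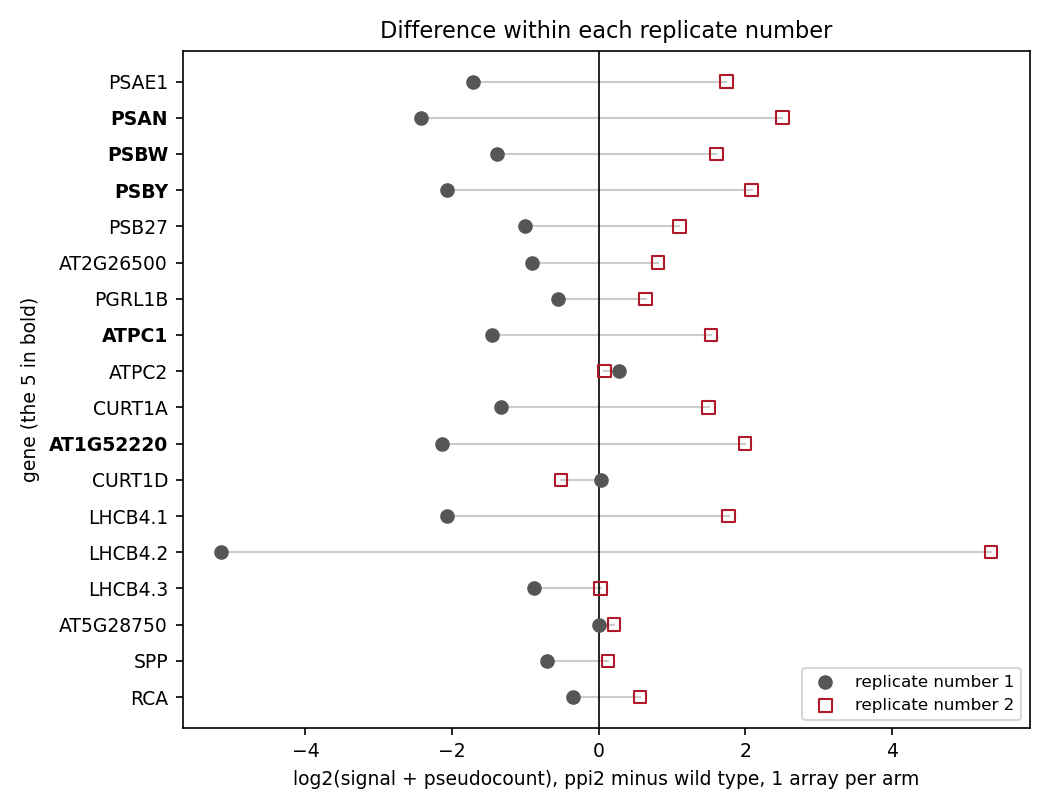
Log2 difference, ppi2 minus wild type (x axis), within replicate number 1 (filled circles) and 2 (open squares), 1 array per arm, for the tested genes of the thylakoid, antenna, targeting, import and photosynthetic tissue lists, the 5 genes in bold. The 5 genes lie between -2.43 and -1.39 in number 1 and between 1.53 and 2.50 in number 2. In number 1, CURT1D and AT5G28750 lie near 0 and ATPC2 lies at 0.28.

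Genes next to the members on the chromosome were looked up for a probe set in the annotation used. Of the 10 neighbours, 4 had one and 2 were tested. AT5G64030, beside PSAN, had signals of 820.7 and 1071 in ppi2 and 1022 and 933.1 in wild type, differences of -0.31 and 0.20 where PSAN had -2.43 and 2.50. AT1G67750, beside PSBY, differed by -0.56 and 0.87. PSAH2, the photosystem I subunit gene beside AT1G52220, had no probe set in the annotation used. AT2G30560 beside PSBW and AT4G04650 beside ATPC1 were too dim to be tested.

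The genes most like each member were named by the smallest RMS difference over the 4 arrays. For PSAN these were AT1G70900 (RMS 0.056), AT5G35970 (0.079) and AT5G57345 (0.105). For PSBW they were AT1G73470 (0.038), AT3G29760 (0.05) and AT1G74070 (0.052), and for PSBY AT1G23130 (0.038), AT1G26920 (0.049) and AT1G54820 (0.055). ATPC1 was most like AT1G73655 (0.042), AT4G10910 (0.043) and CHLM (0.044), the methyltransferase of chlorophyll synthesis, which read 3014 and 8731 in ppi2 and 8432 and 2772 in wild type. AT1G52220 was most like Fes1B (0.054), AT1G78460 (0.055) and ndhA (0.057). The last is a plastid-encoded subunit of the NDH complex, with signals of 1107 and 5137 in ppi2 and 5315 and 1196 in wild type.

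How many probe sets shared a profile differed between members. Within an RMS difference of 0.25 lay 640 other tested probe sets for ATPC1 (4.7%) and 576 for PSBW (4.23%). For PSBY there were 234 (1.72%), for AT1G52220 233 (1.71%) and for PSAN 85 (0.625%). The limit of 0.25 was the same for every gene, and the counts fell in the order in which the spans of the genes rose. Likeness over 4 arrays describes these arrays and says nothing of shared function.

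**Figure D5:**
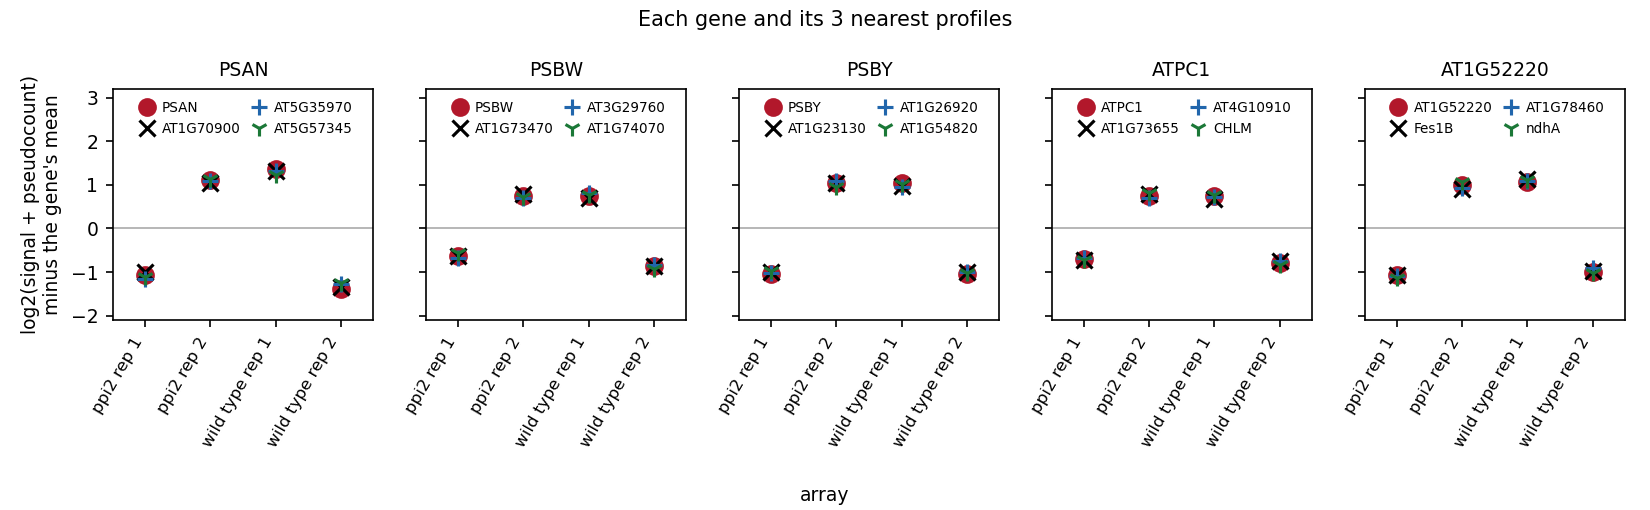
Log2 value minus the gene's own mean (y axis) on the 4 arrays (x axis) for each of the 5 genes (red circles) and its 3 nearest genes by RMS difference (crosses and ticks). In every panel ppi2 replicate 2 and wild type replicate 1 are above 0 and the other arrays below, and the nearest genes lie within an RMS difference of 0.105.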

How the data were processed

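The signal intensities deposited by the authors were MAS5 values on a linear scale, per the submitters' processing notes, which give neither its version nor its scaling target. Group and replicate number came from the sample titles. The 2% trimmed means of the arrays differed by at most 0.407%, so the deposited scaling was kept. Detection calls were not at hand, and precision is limited by the number of arrays.

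Of 22810 probe sets, 64 controls were left out. A platform annotation named 14016, of which 13513 had 1 gene and 503 several, and left 8794 unnamed. Of the 13513, 13436 matched a RefSeq gene table (TAIR10.1), used for names and neighbours. A gene counted here as without a probe set may therefore still be read by an unnamed or several-gene probe set. Where a gene had several probe sets the brightest was kept (150 dropped), and those with a mean below 123.8, the 40th percentile, were dropped too (8992). Log2 was taken after adding 7.99, the 10th percentile, which understates differences of dim probe sets. The remaining 13604 were fitted with limma 3.58.1 in R 4.3.3 (two-sided test of the group term, eBayes with a variance trend, Benjamini-Hochberg adjustment over all of them, threshold 0.05; 2 residual and 2.59 prior degrees of freedom). The fit was also run on simulated data with independent noise between arrays. That setting differs from these arrays, so it does not vouch for the fit here. Same-numbered arrays deviated in opposite directions (correlation of deviations across probe sets -0.818), whereas poly-A controls were brighter on both number 1 arrays. The fit had no block, since the labels do not say that a number marks a shared batch. Whether the numbers mark a shared step was not tested.

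Members and lists were chosen with earlier results of these data known. Named genes were the members, measured genes of the lists, chromosomal neighbours and, for each member, the 3 nearest profiles of named genes. The labelled calls and differences were recomputed with median centring, quantile normalization, other filters and pseudocounts, no variance trend, the replicate number as a block and leaving out each array. Differences within a replicate number were recomputed with the scalings and pseudocounts only, and spans, likeness and list counts with none of these. Promoter motifs, which were also planned, were not analysed here. Plots were made in Python 3.11.15 (matplotlib 3.10.9).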

Additional observations from a re-analysis of the deposited data

How the results depend on the processing

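Calls between the labelled groups numbered 0 in limma under all 13 alternatives, including the replicate number as a block (0 calls, no call changed) and the crossed replicate numbers as a block (0 calls), which was chosen after seeing the data. With all arrays kept, the 40 labelled values of the 5 genes under 8 alternatives lay between -0.115 and 0.164, and 0 changed sign. The filters, the variance trend and the replicate block could not move these values by construction, so only the scalings and pseudocounts could have changed them. Leaving out 1 array turned 10 of 20 values, and the lone array is then assumed to vary like the other group. The ranges were -1.339 to 1.416 for PSAN, -0.699 to 0.912 for PSBW, -1.031 to 1.046 for PSBY, -0.729 to 0.807 for ATPC1 and -1.110 to 0.962 for AT1G52220. The median of the 5 ranged from -1.031 to 0.962. None of these values passed the threshold. Differences within a replicate number kept their sign in all 5 genes under 5 alternatives, between -2.43 and -0.542 in number 1 and between 0.939 and 2.51 in number 2; the values nearest 0 came from scaling on the hybridisation controls, chosen after seeing the data. Median centring moved the median of all probe sets from 0.02 to 0.15 in number 1. Signals without detection calls limit what genes of lower signal than the members, such as CURT1D and ATPC2, show. Both read above the array medians of 193 to 213.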
